A study of Mus musculus with 16 samples.

Results

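The promoters described here are the 1000 whose chromatin was most open in wild-type mouse neural stem and progenitor cells (NSPCs), out of 19267 promoters on autosomes. Openness was read as ATAC-seq counts in a window around the gene start, divided by the library's total over all 20113 promoter windows and given in CPM, counts scaled to a common library total. The mean CPM over the 8 wild-type libraries chose the members, so their wild-type levels are a description and carry no test. The study compared loss and gain of Kat6b, which encodes a histone acetyltransferase, in NSPCs grown as neurospheres from the dorsal telencephalon of E12.5 embryos. Kat6b-/- embryos (KO) were compared with wild-type embryos on C57BL/6 (WT C57BL/6), and embryos of the line Tg(Kat6b), which overexpresses Kat6b and is here called Tg, with wild-type embryos on the FVB x BALB/c hybrid background (WT FVB x BALB/c). The hybrid background was used because the transgenic mice did not survive on C57BL/6, per the study's design text, which names neither the promoter nor the copy number of the transgene, nor the deleted part of the knockout allele. Each group held 4 embryos, each library was made from 50000 NSPCs mixed with 50000 Drosophila melanogaster S2 cells, and no library enters both comparisons.

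In ATAC-seq a transposase cuts DNA that is not wrapped in nucleosomes or covered by bound proteins, and active promoters are among the most accessible sites of a genome. Many promoters of widely expressed genes lie in CpG islands, stretches rich in CG dinucleotides. Such promoters are commonly bound by SP and KLF zinc finger factors at GC boxes, by the trimeric factor NF-Y at CCAAT boxes and by ETS factors. KAT6B acetylates histone H3 and works together with BRPF, ING and MEAF6 proteins, and mutations in the human gene cause intellectual disability syndromes.

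The 1000 promoters had wild-type means of 143.6 to 496 CPM with a median of 173, against a median of 36.4 over all autosomal promoters, and they made up 5.19% of the autosomal set. Levels dropped steeply over the first ranks and slowly after them: rank 100 stood at 247 CPM and rank 500 at 173. The most open promoter was that of Sp4, a zinc finger factor of GC boxes in the brain, at 496 CPM. It was followed by Dhrsx, of the short-chain dehydrogenase family, at 464, and by Sap130, a subunit of the SIN3 deacetylase complex, at 398. Gsk3b, a kinase of the WNT pathway, stood at 396, and the small GTPase gene Rap2a and the calmodulin-binding transcription activator gene Camta1 both stood at 390. Ppp2r3d, a regulatory subunit of protein phosphatase 2A, Sp1, the prototype GC-box factor, Khsrp, an RNA-binding splicing regulator, and Gpr108 completed the first 10, at 382, 371, 364 and 351 CPM. The members just inside the limit of 1000 were Get4 at 143.8, Atf2 at 143.7 and Clcn6 at 143.6 CPM, and the promoters just outside were Mphosph6 and Rspry1 at 143.6 and Dyrk2 at 143.5, so no gap in level separates them.

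The first set of sequences shows what the most open promoters look like. They are the 250 bases before the gene start as RefSeq lists it on GRCm38.p6, read 5′ to 3′ on the gene's strand, with capitals for 4 motifs on either strand: the GC box GGGCGG or CCGCCC, the CCAAT box CCAAT or ATTGG, the ETS letters CCGGAAG or CTTCCGG, and the TATA box TATAAA or TTTATA. Sp4 and Rap2a are dense in CpG, with 37 and 39 CG dinucleotides, and hold several GC boxes. Gsk3b and Camta1 have 15 and 18 CG dinucleotides and hold 3 CCAAT boxes each.
Sp4, chr12:118301441-118301690, - strand: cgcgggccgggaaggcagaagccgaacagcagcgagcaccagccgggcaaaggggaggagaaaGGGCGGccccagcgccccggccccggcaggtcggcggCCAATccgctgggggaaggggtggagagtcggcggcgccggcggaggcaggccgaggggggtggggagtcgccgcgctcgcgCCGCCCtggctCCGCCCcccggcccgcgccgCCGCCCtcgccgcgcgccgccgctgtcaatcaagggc
Gsk3b, chr16:38088751-38089000, + strand: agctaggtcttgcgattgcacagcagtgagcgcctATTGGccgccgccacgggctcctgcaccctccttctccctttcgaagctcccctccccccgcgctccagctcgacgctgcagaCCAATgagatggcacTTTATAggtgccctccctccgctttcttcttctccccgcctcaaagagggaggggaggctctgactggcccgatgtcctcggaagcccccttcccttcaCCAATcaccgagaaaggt
Rap2a, chr14:120478211-120478460, + strand: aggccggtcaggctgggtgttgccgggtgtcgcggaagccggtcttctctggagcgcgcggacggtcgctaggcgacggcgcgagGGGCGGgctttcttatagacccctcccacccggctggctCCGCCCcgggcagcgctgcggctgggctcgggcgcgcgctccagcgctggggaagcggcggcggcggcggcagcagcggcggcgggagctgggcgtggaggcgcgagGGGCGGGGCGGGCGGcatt
Camta1, chr4:151861769-151862018, - strand: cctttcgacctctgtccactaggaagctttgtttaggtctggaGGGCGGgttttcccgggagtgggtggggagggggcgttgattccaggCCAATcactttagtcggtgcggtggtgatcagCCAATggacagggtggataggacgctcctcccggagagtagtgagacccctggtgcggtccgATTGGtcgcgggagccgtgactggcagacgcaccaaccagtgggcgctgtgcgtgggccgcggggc

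GC boxes, CCAAT boxes and CG dinucleotides were more common in the members than in promoters at large. A RefSeq sequence was matched to 841 of the 974 members outside chromosome 18, and to 15333 of 18784 autosomal promoters outside it. The members had a median of 20 CG dinucleotides in 250 bases and a GC content of 64.8%, against 11 and 56.4% over all promoters with a sequence. A GC box was present in 77.3% of the members and in 45.6% of all promoters, and at least 2 of them in 51.8% and 24.7%. A CCAAT box was present in 53.9% of the members, against 36.0% of all promoters. The TATA box and the AP-1 letters TGANTCA went the other way, with 4.99% and 2.85% of the members against 12% and 6.33% of all promoters. The ETS letters were in 12% of the members and 9.66% of all promoters. These shares describe letters in a window of 250 bases, and many promoters share CpG islands, neighbours or gene families, so they carry no test.

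Most of these shares were alike in the next 1000 promoters, while the CCAAT box share was higher towards the top of the ranking. The next 1000 promoters had a median of 21 CG dinucleotides, the same GC content of 64.8% and a GC box in 75.4%, close to the members' values. The CCAAT box was in 64.3% of the first 100 promoters, in 56.2% of ranks 101 to 500, in 49.9% of ranks 501 to 1000 and in 46.7% of ranks 1001 to 2000. The ETS letters ran the other way within the members, with 4.76% of the first 100, which is 4 of 84 promoters, 10.3% of ranks 101 to 500 and 14.9% of ranks 501 to 1000.

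**Figure D1:**
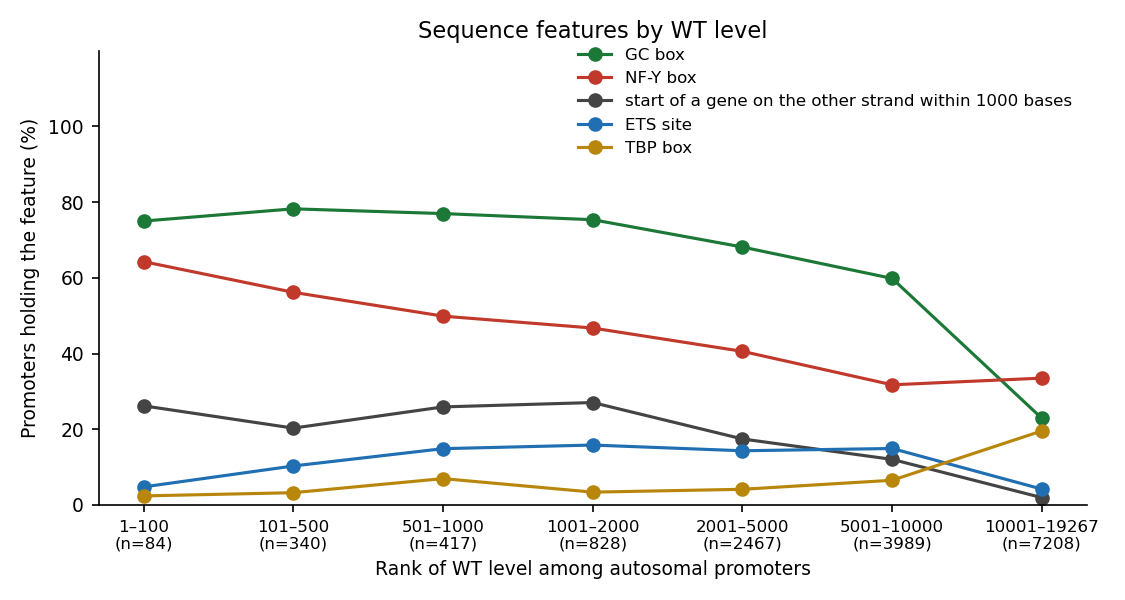
Share of promoters (%) that hold each feature in the 250 bases before the RefSeq start, or whose start lies within 1000 bases of one on the other strand, by rank of wild-type level; the line named TBP box is the TATA box. The CCAAT (NF-Y) box share is 64.3% in ranks 1 to 100 and 46.7% in ranks 1001 to 2000, while the GC box share is 75% and 75.4%.

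Pairs of genes that start back to back were listed for about as many members as for the promoters ranked next. A start on the opposite strand within 1000 bases was listed for 199 of 841 members (23.7%), against 9.60% of all promoters with a sequence, 27.1% of ranks 1001 to 2000 and 1.93% of ranks 10001 to 19267. Because a promoter window spans 2001 bases in 993 of the members, such neighbours can count the same reads. In 132 pairs of neighbouring members (264 members) the counts moved together across libraries with less than counting noise between them, and 99 of the 100 such pairs with a known strand ran in opposite directions. The chaperonin genes Hspd1 and Hspe1 start 95 bases apart, and the nuclear pore gene Nup98 and its neighbour Pgap2 start 7 bases apart. The Nup98 window, chosen for display after the values were seen, holds 2 CCAAT boxes and 1 GC box.
Nup98, chr7:102210167-102210416, - strand: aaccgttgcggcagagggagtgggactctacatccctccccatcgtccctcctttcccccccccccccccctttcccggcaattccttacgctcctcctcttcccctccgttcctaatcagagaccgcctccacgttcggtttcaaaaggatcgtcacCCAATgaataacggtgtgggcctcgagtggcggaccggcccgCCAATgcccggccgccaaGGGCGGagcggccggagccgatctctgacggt

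The ranking was alike on both wild-type backgrounds. Chosen on the 4 WT FVB x BALB/c libraries alone, 922 of the 1000 stayed in, on WT C57BL/6 alone 932 did, and 854 were in both lists. Over the 8 wild-type libraries a member's CPM had a median coefficient of variation of 7.05%. The groups still differed at single promoters, here and for Sap130 and Hjurp in CPM further scaled with TMM factors. These factors were 1.02 to 1.06 in WT FVB x BALB/c and 0.99 to 1.02 in WT C57BL/6, which lowers the former values slightly more. All 4 WT FVB x BALB/c values lay above all 4 WT C57BL/6 values at 51 members and under them at 270, with a median log2 difference of -0.10. The share of all promoters without such overlap was not counted, so these counts are not particular to the members. Sap130 differed most upward, 1.81-fold higher in WT FVB x BALB/c, and Hjurp, the chaperone of the centromeric histone CENP-A, most downward, at -0.84 on the log2 scale. These wild-type libraries chose the members, so the values are given as a description.

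**Figure D2:**
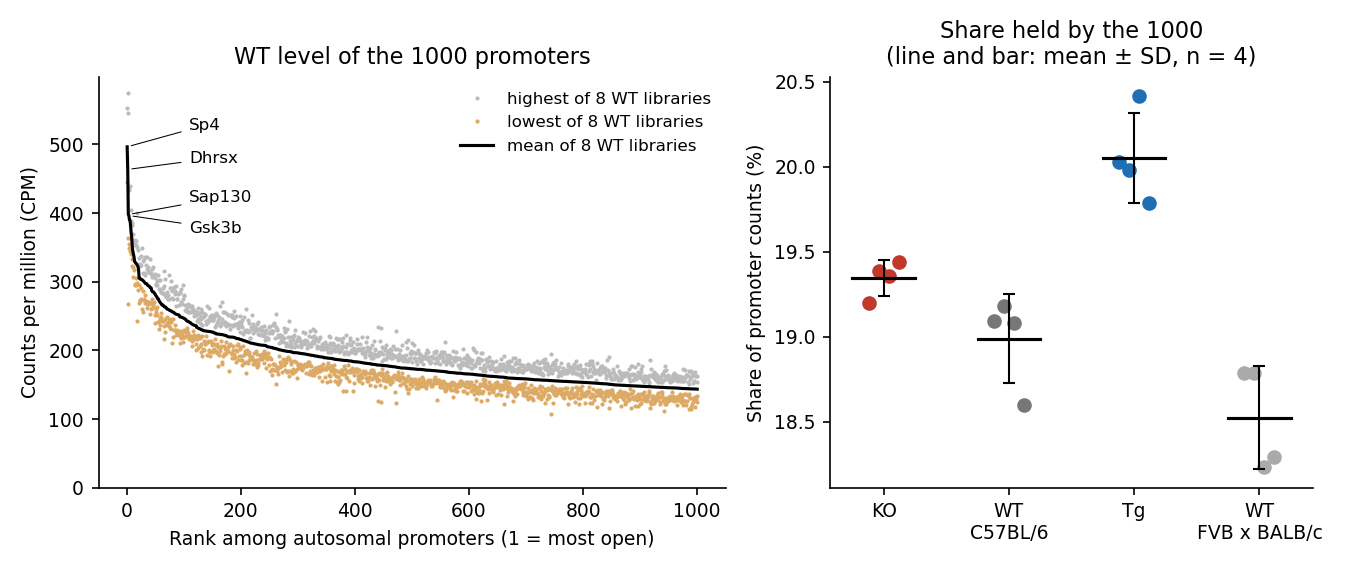
Left, mean, lowest and highest CPM of the 8 wild-type libraries (CPM axis from 0) for the 1000 promoters by rank. Right, share of all promoter counts (%) that fell in the 1000 in each library, with mean ± SD of 4 libraries; the axis does not start at 0, and all 4 Tg libraries lie above all others.

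The share of a gene list that fell among the members differed from list to list, with lists of transcription and stress factors at the high end and mitochondrial and ribosomal lists at the low end. Of 30 genes for transcription factors of open promoters, such as SP, NF-Y, ETS and MYC-network factors, 14 were members (46.7%), against 5.19% of autosomal promoters. Of 36 immediate early and stress genes 13 were members (36.1%), of 99 chromatin genes 20 (20.2%), of 49 neural stem and progenitor genes 9 (18.4%) and of 82 chaperone genes 13 (15.9%). Replication-dependent histones had 9 of 58, splicing and hnRNP genes 13 of 103, and cell cycle and replication genes 12 of 104. Cytosolic ribosomal proteins had 4 of 80, proteasome and ubiquitin genes 7 of 136, RNA polymerase II and Mediator genes 5 of 83, translation factors 5 of 67, and mitochondrial respiratory chain and ribosome genes 3 of 179 (1.68%). Zinc finger genes named Zfp with a number, many of them KRAB repressors, had 21 of 382, and newborn neuron genes 1 of 21, the SOXC factor gene Sox11. The lists were chosen with earlier results of these data known, so these shares are a description and carry no test.

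The labelled cell type was checked against markers of neural progenitors and of other cells. Of 15 neural stem and progenitor markers 3 were members, the Notch effector Hes1 at rank 281, the intermediate filament gene Vim at rank 292 and Sox2, a core factor of neural stem cells, at rank 944. Over the 15 the median wild-type level was 91.0 CPM, against 19.0 for newborn neuron, 8.21 for microglia and leukocyte, 15.6 for endothelial, 9.48 for erythroid and 18.5 for mesenchymal markers, none of which were members. Pax6, a marker of dorsal progenitors, stood at 14.7 CPM in the window counted here. A share of cells with a promoter open and the degree of openness per cell cannot be told apart in such bulk libraries.

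Library facts bear on both comparisons. Promoter counts per library were 1384643 to 5015408, the lowest count of any member in any library was 154, and the median member had 235.5 to 963 counts per library. Tg libraries were the deepest (4023140 to 5015408 promoter counts, against 1384643 to 3101439 in WT FVB x BALB/c), and KO libraries had 2615700 to 3642738, against 2147037 to 2757778 in WT C57BL/6. Chromosome Y enhancer regions gave 0.458 to 9.01 CPM in Tg libraries, against 48.6 to 61.3 in WT FVB x BALB/c, while they gave 34.1 to 42.0 in KO libraries, against 38.9 to 48.4 in WT C57BL/6. The part that this Y signal has in the Tg differences was not tested, and values at equal depth are given with the counts. From here on, levels are CPM scaled with TMM factors, and fold changes come from edgeR's quasi-likelihood test over all 20008 promoters tested. All 1000 members were among them, with p-values adjusted by the Benjamini-Hochberg method and a threshold of 0.05. The p-values rest on the spread between the embryos of a group.

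The Kat6b promoter is itself a member, at rank 78. It held 3249, 3232, 3477 and 2744 CPM in the 4 Tg libraries, against 236, 223, 229 and 231 in WT FVB x BALB/c, a log2 change of 3.79 (edgeR adjusted p = 5.9e-128). Reads there count DNA copies as well as openness, and the copy number is not known. In KO it held 297, 301, 298 and 296 CPM, against 262, 303.5, 275 and 250.5 in WT C57BL/6, a log2 difference of 0.13 (edgeR adjusted p = 0.167), and since the deleted part is not given, this window does not check the label.

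Few of the most open promoters changed in KO, and by small amounts. In KO 62 members were higher and 10 lower than in WT C57BL/6 (7.20% called, against 3.99% of all promoters tested), and 928 did not pass. Over all promoters 2.09% were higher and 1.90% lower. Ranks 1001 to 2000 had 43 higher and 12 lower (5.50% called). The median log2 change of the members was 0.06, against -0.01 over all promoters tested, no member changed 2-fold, and the changes ranged from -0.31 to 0.40. At an unadjusted edgeR p under 0.05 there were 257 members, against 268 promoters in ranks 1001 to 2000 and 3445 of the 20008 promoters tested. The balance of 62 and 10 depended on the scaling: it was 44 higher and 18 lower with library totals, 5 and 0 with factors from gene ends, 18 and 5 with all libraries thinned to equal depth, and 16 and 43 with offsets that follow abundance. Leaving out 1 library gave 36 higher without KO library 1 or 2, 32 without KO library 3, and 38 and 29 without WT C57BL/6 library 3 and 4, and it gave 5 lower without KO library 1 and 3 without WT C57BL/6 library 2. All 4 KO values lay above all 4 WT C57BL/6 values at 145 members and under them at 20, together 16.5%, against 5.43% and 4.61%, together 10.0%, of all promoters. The share of promoter counts that fell in the members was 19.34% ± 0.105 in KO and 18.99% ± 0.262 in WT C57BL/6 (SD, n = 4 each), a difference of 0.357 percentage points, and the 2 groups did not overlap by a narrow margin, 19.196% for the lowest KO library against 19.180% for the highest WT C57BL/6 library.

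The largest rise in KO was at Psat1, whose product makes phosphoserine in serine synthesis. Its 4 KO values were 218, 215, 189 and 198 CPM, against 162, 165, 147 and 147 in WT C57BL/6 (log2 change 0.40, SE 0.06, edgeR adjusted p = 4.6e-08). Every KO value lay above every wild-type value. The next was Hes1, at 268.5, 262, 284 and 261 CPM in KO, against 215, 214.5, 202 and 226 in WT C57BL/6 (log2 change 0.32, SE 0.05, edgeR adjusted p = 3.3e-06), again with no overlap. Itgb8, an integrin subunit that activates TGF-beta on neural progenitors, rose to 208, 214, 209 and 236 CPM in KO, against 196, 169, 190 and 148 in WT C57BL/6 (log2 change 0.31, edgeR adjusted p = 0.00015). Tmem229a (0.32) and Btbd17 (0.28) rose by similar amounts, with the Btbd17 values at 254 to 268 CPM in KO, against 202 to 218 in WT C57BL/6. Smaller rises, of 0.24 to 0.26, were at the tyrosine phosphatase gene Ptpn12, Phlda1, the ubiquitin ligase adaptor gene Klhl24, the Gsk3b paralog Gsk3a and the TGF-beta-induced factor gene Klf10.

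The leading fall in KO was at Wipi1, whose product binds phosphoinositides on forming autophagosomes. It held 188, 178.5, 189 and 182 CPM in KO, against 226, 236, 219 and 232 in WT C57BL/6 (log2 change -0.31, SE 0.06, edgeR adjusted p = 1.7e-05). The groups were apart by more than their own ranges. Dop1b (-0.29, 148 CPM in KO against 180 in WT C57BL/6) and the potassium channel tetramerization domain gene Kctd7 (-0.25) came next. With factors from gene ends, which shift all promoters upward by a median of 0.11, the changes of Wipi1, Dop1b and Kctd7 were -0.20, -0.18 and -0.15 and did not pass. Vkorc1l1, a paralog of the vitamin K epoxide reductase, Fam210b and the endosomal GTPase gene Rab22a fell by 0.22 each, and Zfp78, Zbtb37, the retrovirus restriction gene Fv1, whose window is shared with Miip, and the fatty acyl-CoA reductase gene Far1 by 0.19 to 0.21. These 7 were less firm: Vkorc1l1 and Zfp78 did not pass without WT C57BL/6 library 2, and the other 5 did not pass without any 1 of 3 to 5 libraries, KO library 1 and WT C57BL/6 library 2 among them for each.

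Within the gene lists few members passed in KO, and with factors from gene ends Hes1 alone did. Over all members 6.20% were higher and 1.00% lower in KO, and over all promoters tested 2.09% and 1.90%. The list counts are small and were not tested against these shares. The chromatin list had 3 of 20 higher and 0 lower, the plant homeodomain reader gene Ing1 (0.17), the H3K4 methyltransferase gene Kmt2c (0.21) and the SIN3 subunit gene Arid4b (0.18), whose window is shared with Ggps1. The immediate early and stress list had 2 of 13 higher, Zfp36l2, an mRNA decay factor (0.24), and Klf10. Splicing genes had 2 of 13 higher, Hnrnpa0 (0.23) and Hnrnpul1 (0.22), and histones 2 of 9, H2ac12 and H2bc12 (0.21 and 0.20), whose shared window makes them 1 measurement. Neural stem and progenitor genes (Hes1 of 9), chaperones (Hsph1 of 13), transcription factors of open promoters (Elf2 of 14) and mitochondrial genes (Cox20 of 3) had 1 higher member each. The Zfp-numbered list had 1 lower of 21, Zfp78, and such genes have close copies. The KO calls of Ing1, Kmt2c, Arid4b, Hnrnpa0, Hnrnpul1, H2ac12, H2bc12, Hsph1, Elf2 and Cox20 were each lost without 1 or more of the 8 libraries, with changes of 0.12 to 0.21, while those of Hes1, Zfp36l2 and Klf10 were not. Cell cycle, translation, ribosomal, proteasome, polymerase and newborn neuron lists had no called member, with 3, 0, 0, 2, 1 and 1 at an unadjusted edgeR p under 0.05. At that threshold there were 257 of all 1000 members and 3445 of the 20008 promoters tested.

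With TMM scaling a majority of the most open promoters rose in Tg, but with offsets that follow abundance more of them fell than rose. In Tg 643 members were higher and 96 lower than in WT FVB x BALB/c (73.9% called, against 57.3% of all promoters tested), and 261 did not pass. Over all promoters 26.9% were higher and 30.5% lower. Ranks 1001 to 2000 were close to the members, with 634 higher and 98 lower (73.2% called). In those ranks the groups did not overlap at 63.1%. The members' median log2 change was 0.23, against -0.10 over all promoters, and 2 members changed at least 2-fold, Kat6b and Wipi1. Without WT FVB x BALB/c library 1 the lower members were 61. The split was 493 higher and 199 lower with library totals, 954 and 3 with factors from gene ends, 531 and 87 at equal depth, and 280 and 347 with offsets that follow abundance. With library totals, factors from gene ends and the offsets the median over all promoters was -0.21, 0.35 and -0.0087. The members had medians of 0.11, 0.69 and -0.0092 in the same order. All 4 Tg values lay above all 4 WT FVB x BALB/c values at 593 members and under them at 64, together 65.7%, against 23.5% and 21.7%, together 45.3%, of all promoters. The members held 20.05% ± 0.266 of the promoter counts in Tg and 18.52% ± 0.304 in WT FVB x BALB/c (SD, n = 4 each), a difference of 1.53 percentage points with no overlap between the groups.

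With TMM scaling the median Tg change was smaller in the first ranks than further down. The median Tg change was 0.13 in ranks 1 to 100, 0.19 in ranks 101 to 250, 0.27 in ranks 251 to 500 and 0.26 in ranks 501 to 1000, and it was 0.23 in ranks 1001 to 2000 and -0.36 beyond rank 8000. Since the WT FVB x BALB/c libraries helped to set the ranks, the ranking was repeated on WT C57BL/6 alone, which gave medians of 0.17, 0.21, 0.28 and 0.27 with 676 members higher and 89 lower. In KO the medians were 0.06, 0.07, 0.06 and 0.05 over the same ranks, and 0.06 in ranks 1001 to 2000. Ranks chosen on WT FVB x BALB/c alone gave 69 members higher and 15 lower in KO, with a median of 0.06.

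**Figure D3:**
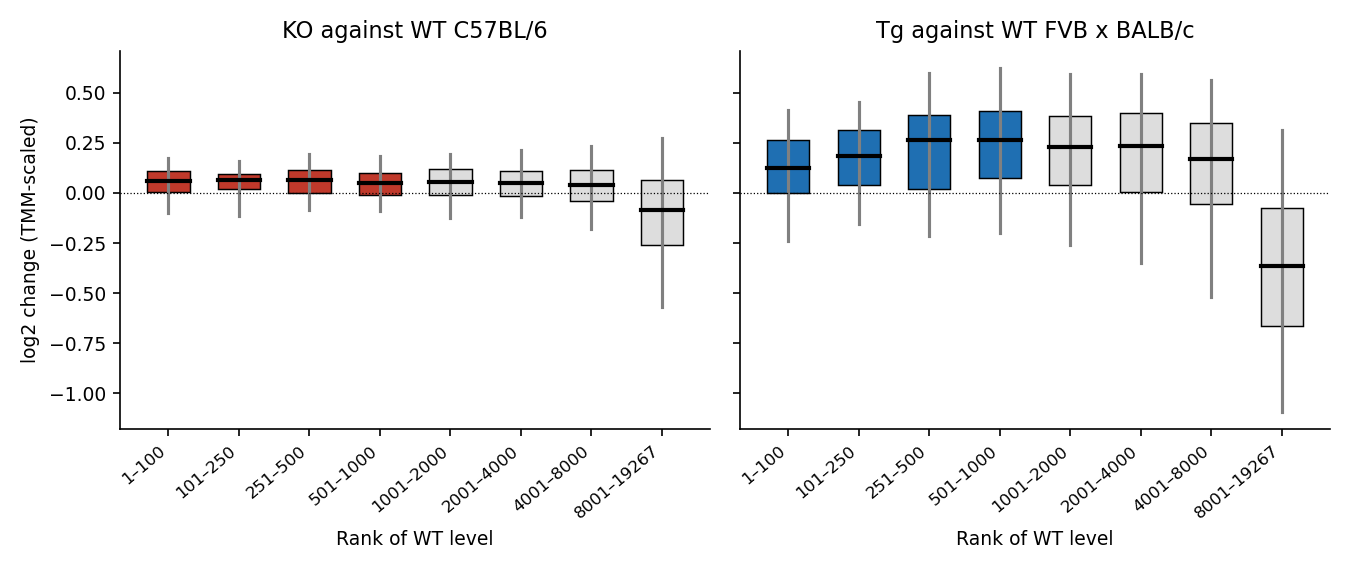
log2 change (TMM-scaled) by rank of wild-type level in KO against WT C57BL/6 (left) and Tg against WT FVB x BALB/c (right). Boxes run from the lower to the upper quartile with the median as a line, vertical lines run from the 5th to the 95th percentile, and coloured boxes are the members; Tg medians are 0.13 to 0.27 in the members and -0.36 beyond rank 8000.

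Of the 10 most open promoters, 3 rose in Tg, 3 fell and 4 did not pass. Over all members 64.3% were higher and 9.60% lower in Tg, and over all promoters tested 26.9% and 30.5%. Gsk3b held 443, 462, 457 and 426 CPM in Tg, against 348, 352, 353 and 360 in WT FVB x BALB/c (log2 change 0.34, edgeR adjusted p = 1e-10), and Sp1 (0.32) and Rap2a (0.26) rose as well. No Gsk3b value of 1 group reached those of the other. Dhrsx held 425, 420, 433 and 431 CPM in Tg, against 556, 555, 492 and 524 in WT FVB x BALB/c (log2 change -0.32, edgeR adjusted p = 4.7e-10), a fall that became 0.14 with factors from gene ends. Sp4 (-0.13) and Gpr108 (-0.12) fell too, but with factors from gene ends their changes were 0.33 and 0.35. Sap130 (0.10), Camta1 (0.03), Ppp2r3d (-0.07) and Khsrp (0.04) did not pass. In KO only Camta1 of these 10 passed (0.16, edgeR adjusted p = 0.0356), with 7.20% of all members and 3.99% of all promoters called. Camta1 did not pass without KO library 1, 2 or 3 or WT C57BL/6 library 1, 2 or 4, with changes of 0.14 to 0.17. The Sp4 fall in Tg did not pass without WT FVB x BALB/c library 1 (-0.07), and the Gpr108 fall did not pass without Tg library 1, 2 or 4 or WT FVB x BALB/c library 1 or 2 (-0.12 to -0.08).

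The leading rise in Tg, beside Kat6b itself, was at Polr2a. It encodes the largest subunit of RNA polymerase II and held 253, 261, 275 and 240 CPM in Tg, against 132.5, 140, 129 and 138 in WT FVB x BALB/c (log2 change 0.93, SE 0.06, edgeR adjusted p = 1.4e-36). Hnrnpa2b1, an hnRNP protein gene that shares its window with the heterochromatin protein gene Cbx3, held 292, 303, 281 and 263 CPM in Tg, against 154, 167.5, 157.5 and 159 in WT FVB x BALB/c (log2 change 0.84, edgeR adjusted p = 1.1e-32). At both, every Tg value lay far above every wild-type value. The serine-arginine splicing factor gene Srsf2 (0.78), the helicase gene Ddx5 with its window partner Cep95 (0.73 each) and Arid2, a subunit of the PBAF remodeller (0.76), rose next to them. Foxo3, a forkhead factor of stress and stem cell quiescence, rose to 219 CPM in Tg, against 125 in WT FVB x BALB/c (0.82), and the peroxisomal oxidase gene Pipox to 201 in Tg, against 119 in WT FVB x BALB/c (0.78).

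Sox2 was the leading member among the progenitor genes. Its promoter held 218, 212, 217 and 200.2 CPM in Tg, against 121, 128, 115 and 120 in WT FVB x BALB/c (log2 change 0.81, SE 0.06, edgeR adjusted p = 9e-28), and 168, 180, 185 and 189 in KO, against 146, 179, 172 and 163 in WT C57BL/6 (0.13, edgeR adjusted p = 0.2). The Tg groups stood far apart, while the KO and WT C57BL/6 values overlapped. Ddit4, an inhibitor of mTORC1 that is induced by stress, held 250, 252, 274 and 221 CPM in Tg, against 159, 147, 140 and 146 in WT FVB x BALB/c (log2 change 0.74, edgeR adjusted p = 2.6e-26). The sequences of the promoters that changed most are shown to set them beside the most open ones. Polr2a holds 3 GC boxes and a TATA box, Hnrnpa2b1 holds 1 CCAAT box, Sox2 holds 1 CCAAT box and 2 GC boxes, and Ddit4 holds a GC box and 2 CCAAT boxes.
Polr2a, chr11:69758634-69758883, - strand: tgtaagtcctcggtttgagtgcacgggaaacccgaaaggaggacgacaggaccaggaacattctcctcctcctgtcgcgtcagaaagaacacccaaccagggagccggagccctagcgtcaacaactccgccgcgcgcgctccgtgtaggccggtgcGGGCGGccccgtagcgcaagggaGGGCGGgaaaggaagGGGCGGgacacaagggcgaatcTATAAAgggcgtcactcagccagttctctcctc
Hnrnpa2b1, chr6:51469895-51470144, - strand: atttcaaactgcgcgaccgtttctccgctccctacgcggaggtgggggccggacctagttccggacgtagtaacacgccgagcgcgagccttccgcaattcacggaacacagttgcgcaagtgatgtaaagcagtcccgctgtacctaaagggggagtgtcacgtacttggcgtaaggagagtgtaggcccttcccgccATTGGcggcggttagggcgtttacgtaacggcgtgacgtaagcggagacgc
Sox2, chr3:34649745-34649994, + strand: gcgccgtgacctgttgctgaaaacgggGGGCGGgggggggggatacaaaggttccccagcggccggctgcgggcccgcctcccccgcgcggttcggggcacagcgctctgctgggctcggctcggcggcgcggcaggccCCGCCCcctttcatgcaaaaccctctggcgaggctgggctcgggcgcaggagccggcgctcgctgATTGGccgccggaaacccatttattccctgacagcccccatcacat
Ddit4, chr10:59951771-59952020, - strand: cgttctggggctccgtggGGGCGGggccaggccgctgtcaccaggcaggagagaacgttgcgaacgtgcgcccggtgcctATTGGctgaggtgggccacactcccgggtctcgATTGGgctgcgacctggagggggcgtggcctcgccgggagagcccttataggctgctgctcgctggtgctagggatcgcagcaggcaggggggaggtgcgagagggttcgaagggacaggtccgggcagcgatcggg

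The leading fall in both comparisons was at Wipi1. In Tg it held 111, 107.5, 120 and 99.5 CPM, against 229, 216, 213 and 225 in WT FVB x BALB/c (log2 change -1.01, SE 0.06, edgeR adjusted p = 6.2e-40). Every Tg value was under every wild-type value, and the Tg change was negative and passed under every alternative run. Zfp931, a zinc finger gene, held 63.0, 65.6, 66.2 and 84.4 CPM in Tg, against 148, 134, 118 and 135 in WT FVB x BALB/c (log2 change -0.94, edgeR adjusted p = 2.3e-25), and Zfp97 (-0.74) and Zfp386 (-0.48) fell as well, which is uncertain as to the gene since such genes have close copies that can share reads. Other leading falls were at the dynein light chain gene Dynlt1b (-0.53, also a gene with near copies), Tasp1, the protease that cleaves KMT2A (-0.49), and Emc2, of the endoplasmic reticulum membrane complex (-0.46). With factors from gene ends Zfp386, Dynlt1b and Tasp1 did not pass, at -0.021, -0.077 and -0.036, nor did Emc2, which came to nearly 0. The elongation factor gene Ell2 (-0.42), the Golgi gene Golim4 (-0.41) and the focal adhesion gene Zyx (-0.38) fell too, but with factors from gene ends their changes were 0.036, 0.048 and 0.077. Wipi1 has 8 GC boxes in its 250 bases, Psat1 has 2 CCAAT boxes and no GC box, and Zfp931 has 2 CG dinucleotides.
Wipi1, chr11:109611390-109611639, - strand: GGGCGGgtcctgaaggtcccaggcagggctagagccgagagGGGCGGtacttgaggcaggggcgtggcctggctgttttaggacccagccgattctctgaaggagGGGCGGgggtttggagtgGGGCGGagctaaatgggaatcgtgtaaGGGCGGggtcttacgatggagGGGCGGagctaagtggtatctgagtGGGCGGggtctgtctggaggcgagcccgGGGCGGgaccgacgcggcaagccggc
Zfp931, chr2:178078426-178078675, - strand: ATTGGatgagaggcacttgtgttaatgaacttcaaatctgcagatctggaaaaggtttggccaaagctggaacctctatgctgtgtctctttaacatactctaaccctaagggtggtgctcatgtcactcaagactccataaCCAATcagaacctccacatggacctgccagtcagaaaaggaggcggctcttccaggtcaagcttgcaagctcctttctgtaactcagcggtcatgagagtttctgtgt
Psat1, chr19:15925060-15925309, - strand: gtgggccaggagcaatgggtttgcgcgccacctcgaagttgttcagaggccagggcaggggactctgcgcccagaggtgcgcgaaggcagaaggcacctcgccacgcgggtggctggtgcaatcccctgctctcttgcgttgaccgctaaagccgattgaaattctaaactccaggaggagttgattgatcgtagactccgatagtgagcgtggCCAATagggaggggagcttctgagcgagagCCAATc

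**Figure D4:**
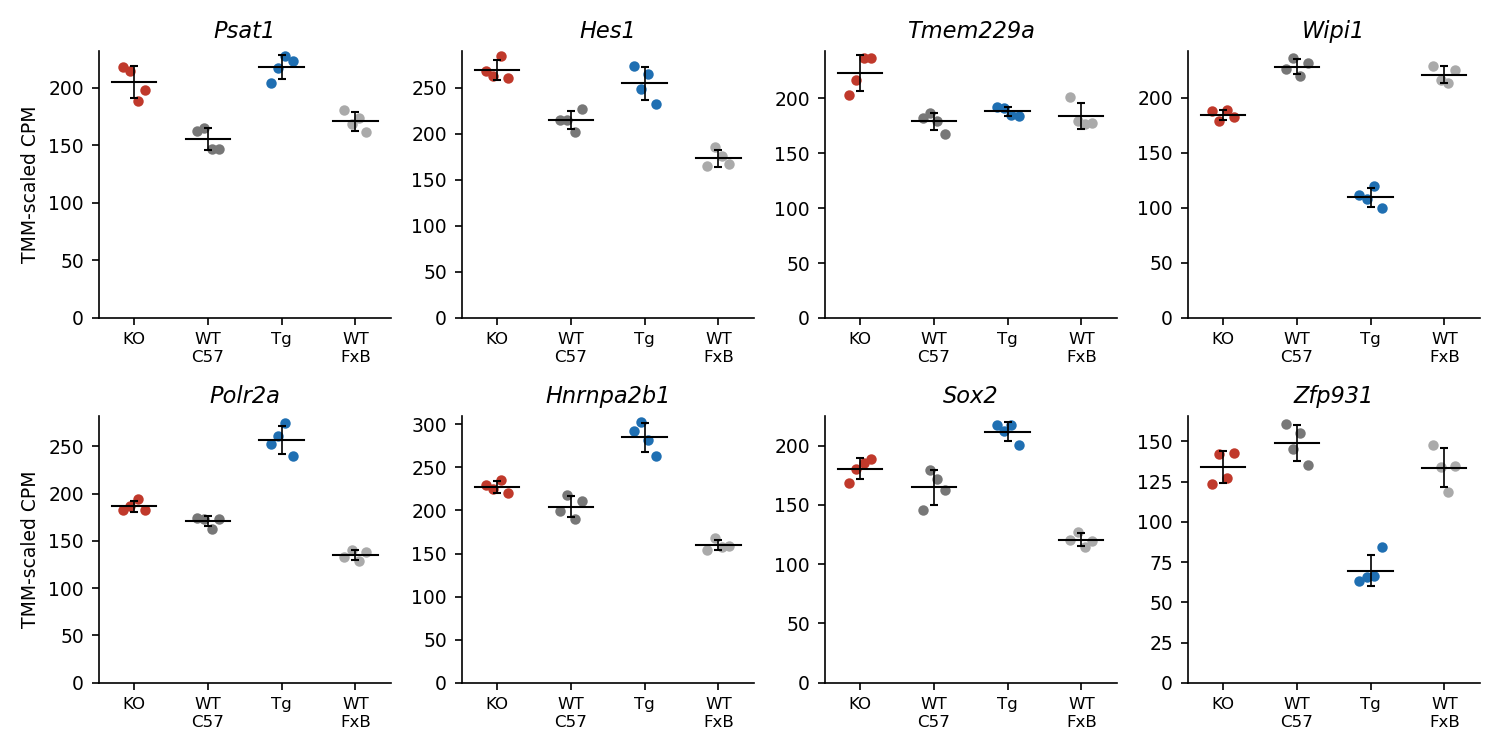
TMM-scaled CPM of 8 promoters in each library, with mean ± SD (n = 4), for KO, WT C57BL/6 (WT C57), Tg and WT FVB x BALB/c (WT FxB); axes start at 0. Wipi1 is lower in KO and Tg than in their wild types, and Polr2a, Hnrnpa2b1 and Sox2 in Tg lie above every other library.

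In nearly every gene list most members rose in Tg with TMM scaling. The Zfp-numbered genes were divided with TMM, and 17 of 21 were higher with factors from gene ends. Transcription factors of open promoters had 13 of 14 members higher and 0 lower, with a median of 0.40, among them Sp3 (0.62), Klf7 (0.54) and the MYC antagonist gene Mnt (0.48). Splicing genes had 13 of 13 higher (median 0.29) and histones 9 of 9 (median 0.30, H3c14 and H3c15 at 0.41 each). Immediate early and stress genes had 12 higher and 1 lower of 13 (median 0.41), such as Zfp36l2 (0.66) and the AP-1 gene Fosl2 (0.58), and chaperones had 11 higher and 1 lower of 13 (median 0.33), such as Dnajb1 (0.52), Hspa2 (0.43) and Hspa8 (0.40). Chromatin genes had 15 higher and 0 lower of 20 (median 0.39), such as Arid4a (0.58) and Ing1 (0.56). With offsets that follow abundance these 6 lists had medians of 0.16, 0.05, 0.06, 0.18, 0.09 and 0.16, with 10, 6, 4, 9, 3 and 11 members higher and 1, 0, 0, 1, 2 and 5 lower. With TMM the median over all members was 0.23 and 64.3% were higher, and over all promoters tested it was -0.10 and 26.9% were higher. Over whole lists, members and others together, the medians were 0.40 for transcription factors of open promoters, 0.26 for splicing, 0.38 for histones, 0.48 for immediate early and stress, 0.14 for chaperones and 0.30 for chromatin genes.

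Neural stem and progenitor genes had the highest median of the lists with several members, 0.55, with 8 of 9 higher and 0 lower, a median that became 0.31, with 5 higher and 1 lower, under offsets that follow abundance. Beside Sox2 they held Hes1 (0.55), the cortical POU factor gene Pou3f3 (0.60) and the gliogenic factor gene Nfib (0.58), and the single newborn neuron member Sox11 rose by 0.66. Over the 15 progenitor markers, members and others, the summed promoter level was 1765 to 1882 CPM in Tg, against 1263 to 1331 in WT FVB x BALB/c, and 1669 to 1749 in KO, against 1552 to 1620 in WT C57BL/6. Of the 15, 12 were higher in Tg and 1, Pax6 (-0.57), was lower, while in KO 1 was higher and 0 lower. Over 8 newborn neuron markers the sum was 160 to 175 in Tg, against 203 to 216 in WT FVB x BALB/c, and 187 to 210 in KO, against 227 to 251 in WT C57BL/6. Of the 8, 3 were lower in Tg and 2 in KO, and 0 were higher. Syt1 weighed most in this sum, with a wild-type mean of 102 CPM against at most 33.2 for any other marker. Its log2 change was -0.43 in KO and -0.34 in Tg. Microglia and leukocyte markers summed to 77.6 to 95.2 in Tg, against 97.8 to 123 in WT FVB x BALB/c, and endothelial markers to 121 to 133 in Tg, against 151 to 170 in WT FVB x BALB/c. Erythroid markers summed to 85.3 to 94.4 in Tg, against 116 to 122 in WT FVB x BALB/c, with 5 of 7 lower and 1 higher, and mesenchymal markers to 228 to 249 in Tg, against 247 to 255 in WT FVB x BALB/c. In KO these 4 sums overlapped with those of WT C57BL/6. These markers had weakly open promoters, with best ranks of 10594 (microglia and leukocyte), 8499 (endothelial), 8628 (erythroid) and 4325 (mesenchymal). Over all promoters in ranks 8001 to 19267 the median Tg change with TMM was -0.36, with 42.3% lower and 7.53% higher. Whether the marker sums fell in Tg by more than other promoters of such ranks was not tested. The part of cell make-up in the members' changes was not tested.

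Smaller lists had most members higher in Tg with TMM scaling, but fewer of them with offsets that follow abundance. There the cell cycle members had 2 higher and 3 lower (median -0.01), the polymerase members 2 and 1 (-0.02), the mitochondrial members 0 and 0 (-0.04), the ribosomal members 0 and 1 (0.0050), the proteasome members 2 and 1 (0.08) and the translation members 3 and 1 (0.19). With TMM 64.3% of all members were higher, with a median of 0.23, and lists near these values repeat the members at large. Cell cycle and replication genes had 8 higher and 1 lower of 12 (median 0.22), with the splicing gene Cdc40 (0.54, whose window is shared with Wasf1), the mitotic inhibitor kinase gene Wee1 (0.37) and the CDK4 and CDK6 inhibitor gene Cdkn2d (0.31) in front. Translation factors had 4 of 5 higher (median 0.42), Eif4g2 most (0.67), and proteasome and ubiquitin genes 6 of 7 (median 0.31), Usp22 most (0.44). RNA polymerase II and Mediator genes had 4 of 5 higher (median 0.22), ribosomal protein genes 3 of 4 (median 0.25), and mitochondrial genes 3 of 3 (median 0.20, among them Atp5j, whose window is shared with Gabpa). Of these, Gtf2a1, Rps29, Cox20 and Atp5j turned to -0.018, -0.022, -0.041 and -0.093 with offsets that follow abundance, and Atp5j did not pass without WT FVB x BALB/c library 3 or 4 (0.10 and 0.12). Zfp-numbered genes had 8 higher and 6 lower of 21, with a median of 0.04. With factors from gene ends they had 17 higher and 2 lower and a median of 0.50, and the median turned to -0.08 with library totals, -0.20 with offsets that follow abundance and -0.04 at equal depth. Over the whole list 84 were higher and 169 lower of 381.

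Members with and without a CCAAT box or a GC box had similar medians of Tg change. With and without a CCAAT box the members had medians of 0.24 and 0.22, and those with and without a GC box 0.24 and 0.22. The 42 members with a TATA box had 33 higher and 0 lower (median 0.33), against 510 higher and 79 lower of the 799 without one (median 0.23). Members with a start on the other strand nearby had 137 higher and 8 lower of 199, and the other 642 had 406 and 71. In 3 equal classes of GC content, low to high, the members' medians were 0.26, 0.20 and 0.24, while over all promoters with a sequence they were -0.52, -0.05 and 0.17. Pearson's r between GC content and Tg change was 0.09 across the members and 0.59 across 15275 promoters, which are not independent of each other and share libraries.

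Of the 72 members called in KO, 61 were called in Tg as well, where 73.9% of all members were called. Of the 62 members higher in KO, 51 were also higher in Tg (82.3% of the KO list, against 64.3% of all members higher in Tg, 7.93% of the 643 higher in Tg, and 0.935% of all promoters had both calls). Those with the largest changes in both were Hes1, Psat1, Btbd17, Ptpn12 and Gsk3a, and Btbd17, for one, rose by 0.61 in Tg. The difference of the effects, tested directly, was called at 20 of the 51. Members lower in both were Wipi1, Fam210b, Fv1, Zfp78, Rab22a and Vkorc1l1, 6 of the 10 lower in KO and 6 of the 96 lower in Tg, with 1.12% of all promoters lower in both, and in Tg Fam210b, Fv1, Zfp78 and Rab22a turned to 0.14, 0.25, 0.27 and 0.31 with factors from gene ends. The Rab22a fall in Tg did not pass without Tg library 3 (-0.11) or WT FVB x BALB/c library 1 (-0.10). Of the members higher in KO, 2 were lower in Tg, where 9.60% of all members were lower. Of the 10 lower in KO, 2 were higher in Tg, where 64.3% of all members were higher. Over all promoters 0.435% and 0.255% had these opposite calls. Itgb8 fell in Tg to 198.3, 180, 197 and 191 CPM, against 249, 227, 198.0 and 203 in WT FVB x BALB/c (log2 change -0.21, edgeR adjusted p = 0.00135), with Tg library 1 just above 1 wild-type value, and it turned to 0.25 with factors from gene ends and did not pass without WT FVB x BALB/c library 1 (-0.13). D16Ertd472e was also higher in KO (0.20, a call lost without any 1 of 5 libraries) and lower in Tg (-0.32, but 0.14 with factors from gene ends), and Zbtb37 and Far1 were lower in KO and higher in Tg (0.30 and 0.24). Over all members the Tg effect minus the KO effect was called at 523, 460 positive and 63 negative (52.3%, against 29.6% of all promoters, 17.0% positive and 12.6% negative). In ranks 1001 to 2000 this difference was called at 50.3%.

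**Figure D5:**
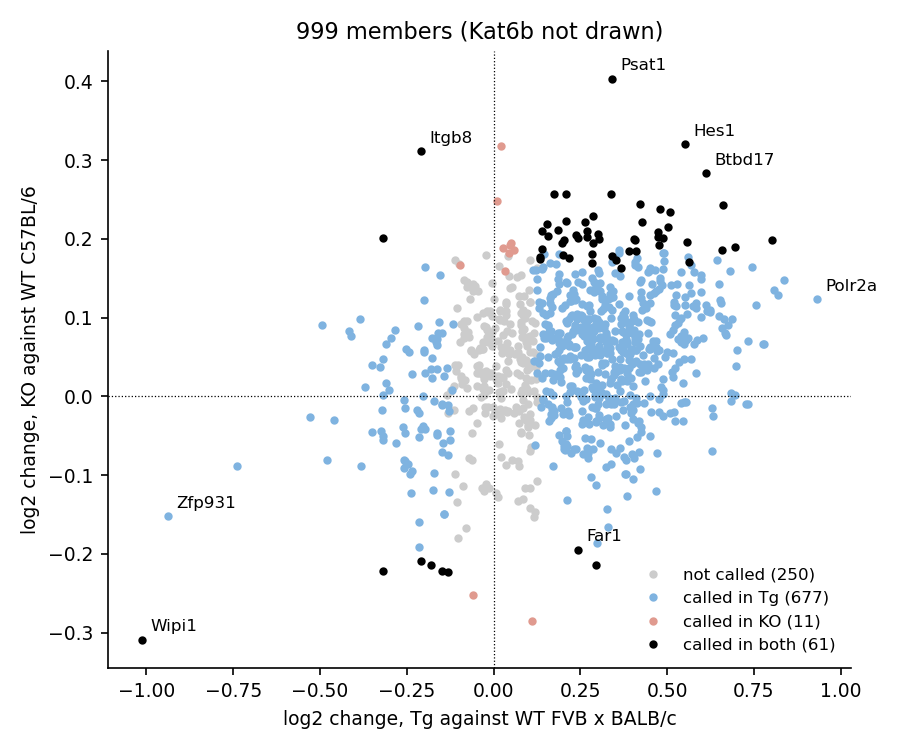
log2 change in Tg against WT FVB x BALB/c (x axis) and in KO against WT C57BL/6 (y axis) for 999 members, Kat6b left out; colours give the edgeR calls. Of the points, 677 are called in Tg alone, 11 in KO alone, 61 in both and 250 in neither, and Wipi1 stands at the lower left.

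Counts at the other end of the genes are a readout that the choice of members did not use. Windows of 1001 bases at the gene end were tested for 843 of the 1000 genes. In Tg 32 ends were higher and 7 lower (4.63% called, against 6.27% of all gene ends, 4.63% higher and 1.64% lower), and of these 39 genes 32 had a promoter called in the same direction, 3 in the opposite one and 4 not called. Of the 843 genes, 557 had a promoter higher in Tg and 71 lower, so many agreements arise from that share alone. Among the 557, 34 ends were called (6.10%), 31 higher and 3 lower. The Sox2 end held 153, 163, 121 and 132 CPM in Tg, against 62.3, 52.1, 49.9 and 88.7 in WT FVB x BALB/c (log2 change 1.21, edgeR adjusted p = 2.6e-07), with no overlap. The ends of Ddit4 (1.00), Jun (0.86), Ddx5 (0.79), Hes1 (0.74) and Zfp36l2 (0.72) rose together with their promoters. Vim went apart: its end fell in Tg to 72.2, 49, 54.2 and 71.8 CPM, against 133, 143, 93.1 and 93.9 in WT FVB x BALB/c (log2 change -0.93, edgeR adjusted p = 0.00024), while its promoter rose (0.28). The end of Mcm7, a subunit of the replicative helicase, fell as well (-0.94), and its promoter did not pass (0.08). Genes named by their ends here were chosen after the values were seen, and a single-exon gene such as Sox2 is so short that its end lies close to its start.

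In KO 9 member ends were higher and 5 lower (1.66% called, against 1.52% of all gene ends, 0.672% higher and 0.849% lower), and 3 of these 14 genes had a called promoter, in the same direction each time. Of the 843 genes tested at their ends, 54 had a promoter higher in KO and 9 lower. The 14 became 9 without KO library 1, 8 without WT C57BL/6 library 1 and 9 without WT C57BL/6 library 4. The end of Egr1, an immediate early gene, held 386, 379, 379 and 416 CPM in KO, against 222, 250, 250 and 192 in WT C57BL/6 (log2 change 0.79, edgeR adjusted p = 1.3e-05), while its promoter did not pass (0.13). The Mynn end rose as well (1.46), as did those of Ddit3 (0.95), a stress factor, Hexim1 (0.81), an inhibitor of transcription elongation, Phlda1 (0.75) and Klf6 (0.62). The Rab22a end fell to 50.8, 81.7, 74.9 and 59.4 CPM in KO, against 124, 150, 153 and 145 in WT C57BL/6 (log2 change -1.11, edgeR adjusted p = 3.2e-05), with no overlap, and its promoter fell too. The Fv1 end had 0 counts in all 4 KO libraries, against 9, 4, 1 and 7 counts in WT C57BL/6, which is at least 2.02-fold lower against a floor of 3 counts per library.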

How the data were processed

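The authors deposited raw counts of ATAC-seq reads for each library in windows at gene starts (promoters), windows at gene ends, and enhancer regions. The submitters' processing notes name featureCounts and the build mm39, and the aligner, read filters, duplicate removal and treatment of the Drosophila spike-in are steps not given in the sources used here. Spike-in counts were not used here. No fold change can therefore be read as a change in absolute openness. The 48 files of single libraries held the same counts as the tables of the whole series, and 20091 of 20113 gene IDs were matched to a symbol.

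Members were the 1000 autosomal promoters with the highest mean CPM over the 8 wild-type libraries, with CPM taken from column sums. The members and the gene lists were chosen with earlier results of these data known. Differences were fitted to the deposited counts of all 16 libraries in 4 groups with edgeR 4.0.16 (R 4.3.3): edgeR's filter on low counts, TMM factors, and the quasi-likelihood test with Benjamini-Hochberg adjustment at 0.05 over 20008 promoters, or over 15186 gene ends in a fit of their own. The biological coefficient of variation was 0.0378 for promoters and 0.0777 for gene ends. The steps were tested on simulated data. Printed log2 changes are edgeR's, each SE comes from the fit of all 16 libraries, and each SD is over 4 libraries. A window pair was taken to share reads where the chi-square per degree of freedom between its counts was under 0.3. The lowest chi-square per degree of freedom between libraries of a group was 1.05, so none was counted as a duplicate. Chromosome Y, Xist and Tsix (17 promoters) stayed out of the named genes. The floor for a count of 0 was 3 counts, and it covers counting error only.

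Named genes were the 10 most open members, the 10 largest rises and falls without overlap between groups in each comparison, the 5 leading members for each pattern of calls in both comparisons, 3 promoters on each side of the limit, up to 3 called members per gene list and comparison, and Kat6b. Gene-end names were chosen after their values were seen.

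Promoter sequences were matched by gene ID to RefSeq on GRCm38.p6, using the first listed start where 185 members had several. That build differs from mm39, so its coordinates serve the printed sequences only. Motifs were searched in the 250 bases before the start.

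Alternatives were edgeR without the filter, library totals, size factors in the style of DESeq2, factors from the gene-end table, offsets that follow abundance, libraries thinned to the smallest total, the 8 libraries of a comparison alone, DESeq2 1.42.0, a replicate block, each library left out, 1 member per shared window, and members chosen on the other background or as the top 500 or 2000. Libraries of the same number did not deviate together (correlations of -0.11 to 0.06), so the numbers were not used as pairs.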

Additional observations from a re-analysis of the deposited data

Results flagged for a closer look

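In groups of 4 libraries, a value was set apart where its gap to the nearest of the other 3, divided by the group's range, passed Dixon's limit for 4 values. Of 412 groups tested for the named promoters and the library measures, 16 (3.88%) had such a value, and chance gives about 1 in 20. WT C57BL/6 library 2 stood above the other 3 at Dyrk2 (163 CPM, against 146.3 to 148.8), Hnrnpa0 (152, against 136.4 to 138.9), Zfp36l2 (219, against 181.1 to 186.8) and Klf7 (213, against 187.6 to 191.3). WT C57BL/6 library 4 was low at Sap130 (262, against 278.6 to 281.4), WT C57BL/6 library 3 at Polr2a (163, against 173.1 to 173.7), and KO library 3 at Rap2a (362, against 395.8 to 397.6).

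Tg library 4 was low at Arid4a (257, against 277.6 to 279.8) and Zfp36l2 (244, against 274.8 to 277.5) and high at Zfp931 (84.4, against 62.99 to 66.16). It also had 9.01 CPM in chromosome Y enhancer regions, against 0.458 to 0.967 in the other Tg libraries. Tg library 3 was high at Mnt (265, against 230.8 to 236.2), Cdkn2d (271, against 242.2 to 246.5) and Rps29 (159, against 152.9 to 153.9). WT FVB x BALB/c library 1 was high at Tmem229a (201, against 176.6 to 179.7) and WT FVB x BALB/c library 2 at H2ac12 (146, against 141.4 to 142).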

How the results depend on the processing

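The 62 members higher in KO became 5 with factors from gene ends, 16 with offsets that follow abundance, 18 at equal depth and 95 in a fit of the 8 libraries alone, which kept all 62. The 10 lower in KO became 0, 43, 5 and, with library totals, 18. In Tg the 643 higher became 280 with offsets that follow abundance, and the 96 lower became 3 with factors from gene ends, 199 with library totals and 347 with offsets, where 3 members higher with TMM were lower and the median was -0.0092. The top 500 and 2000 held 35 and 105 higher in KO, 22 lower in KO for 2000, 306 and 1277 higher in Tg, 59 and 194 lower in Tg, and a CCAAT box in 57.8% and 50.3%. These sets differ in size by construction. The cause of the other changes was not tested.

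In Tg, factors from gene ends turned Sp4 (0.33), Gpr108 (0.35), Dhrsx (0.14), Itgb8 (0.25), Fam210b (0.14), Rab22a (0.31), Zfp78 (0.27), Fv1 (0.25), D16Ertd472e (0.14), Ell2 (0.036), Golim4 (0.048) and Zyx (0.077), and offsets turned Rps29 (-0.022), Gtf2a1 (-0.018), Cox20 (-0.041) and Atp5j (-0.093). Leaving out 1 library gave 29 to 70 higher and 3 to 14 lower in KO, 588 to 660 higher and 61 to 118 lower in Tg, 472 to 534 differences of effect, and 8 to 16 called member ends in KO and 36 to 41 in Tg. Of 33 named KO calls 14 passed without every single library, and of 75 in Tg 70 did.

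With the replicate block KO had 45 higher and 10 lower, Tg 640 and 85, the difference of effects 500, and the member ends 11 in KO and 38 in Tg. Same-numbered libraries correlated at -0.11 to 0.06, so the numbers are no pairs. DESeq2 gave 46 and 7 in KO and 669 and 69 in Tg. No filter, size factors in the style of DESeq2, 1 member per shared window and members chosen on the other background gave 54 to 69 higher and 9 to 15 lower in KO, and 556 to 681 and 76 to 94 in Tg.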

Other observations

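The members were spread unevenly over the autosomes. Chromosome 12 had the highest share, with 63 members among its promoters (10.4%), followed by chromosomes 1 (85 members, 7.52%), 16 (45 members, 7.20%) and 10 (62 members, 6.76%). Chromosomes 11 and 2, with 51 and 60 members, had the lowest shares, 3.33% and 3.53%. Neighbouring members can share a window, so these shares describe the list and carry no test.

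Member genes held 5.60% to 5.68% of all gene-end counts in KO libraries, against 5.30% to 5.54% in WT C57BL/6 libraries. In Tg libraries they held 5.36% to 5.47%, against 5.31% to 5.49% in WT FVB x BALB/c. The KO groups did not overlap in this share, while the Tg groups did. The ends of 3 member genes were called higher in both comparisons. Over all gene ends 4.63% were higher in Tg and 0.672% in KO, and the share higher in both was not counted. On the log2 scale that of Klf6, an immediate early zinc finger factor gene, was higher by 0.61 in Tg and 0.62 in KO, that of Abhd2, a lipase gene, by 0.61 and 0.50, and that of U2af2, a splicing factor gene, by 0.42 and 0.44. The values of the groups overlapped at the U2af2 end in Tg and at the Abhd2 end in KO.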
